A study of Mus musculus with 108 samples.

Results

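The genes examined were those of the proteasome, the particle that degrades proteins marked with ubiquitin. They were the protein-coding rows whose symbol is Psma, Psmb, Psmc or Psmd followed by a digit, leaving out the immunoproteasome and thymus subunits Psmb8, Psmb9, Psmb10 and Psmb11 and pseudogenes. The rule took 36 of the 45195 gene rows. Of these, 31 encode subunits of the somatic particle: 7 of the alpha ring and 7 of the beta ring (the 14 core subunits), and 6 ATPases and 11 non-ATPases (the 17 regulatory subunits). The other 5 were 3 assembly chaperones (Psmd5, Psmd9 and Psmd10), the testis alpha subunit Psma8, and Psmc3ip, a meiotic recombination factor that shares the letters of the name and is no subunit.

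The study measured the transcriptomes of single acinar cells, the cells of the exocrine pancreas that make and secrete digestive enzymes. All came from untreated male C57BL/6 mice 12 weeks old, either purchased or bred in house, and formed 1 group. Acini were freed with collagenase and then Accutase, and cDNA of each cell was amplified by a modified SMART-seq2 procedure, which reads whole transcripts and carries no molecular identifiers. Since the labels tell neither the animal nor the day or plate of a cell, all of them were treated as 1 sample without replicates. No test was made, and each mean is given with its SD over all cells, which describes the spread between cells.

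The proteasome consists of a barrel-shaped core, in which rings of alpha subunits guard a chamber lined by beta subunits, and a regulatory particle on the end of the barrel. The regulatory particle binds ubiquitin chains, removes them, and uses a ring of ATPases to unfold the substrate and feed it into the core, where the catalytic beta subunits cut it. In secretory cells the proteasome also degrades misfolded proteins that are drawn back out of the endoplasmic reticulum (ER-associated degradation).

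The values were TPM, a measure of transcript abundance relative to a fixed total and corrected for transcript length, so levels of different genes can be set side by side. They do not carry sequencing depth, which is unknown here. The label held: 9 of 10 acinar markers were detected in every cell, with detection set at 1 TPM, and their summed level ran from 301815 to 423124 TPM. Summed markers of endocrine, endothelial, stellate, immune and red blood cells each had a median of 0 TPM. Of the endothelial markers, 5 of 6 were detected in cell 40, the only cell with 3 or more. Cell 96 was the only one with 3 or more stellate markers, and 30 cells held 3 or more of 7 ductal markers, among which Muc1 was detected in every cell. Digestive enzymes took a mean of 88.7% of the TPM. The deposited totals of 21 cells fell over 100 TPM short of 1000000, at 788380 to 990520 TPM. Medians of 3939 and 4224 genes were detected in these 21 short-total cells and in the 87 remaining, full-total cells.

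Transcripts of the 31 subunits summed to 270.7 ± 57.9 TPM per cell (SD over all cells). The lowest sum was 169.41 TPM in cell 97, the median 264.5 TPM, and the highest 505.9 TPM in cell 40. This was a mean of 0.0273% of all TPM, and 0.246 ± 0.0489% (SD over all cells) of the TPM outside the digestive enzymes. Core subunits summed to 175.9 ± 39.9 TPM per cell and regulatory subunits to 94.8 ± 21.7 TPM per cell (SD over all cells). The core therefore took 64.9 ± 3.61% of the summed level with 45.2% of the subunit genes.

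**Figure D1:**
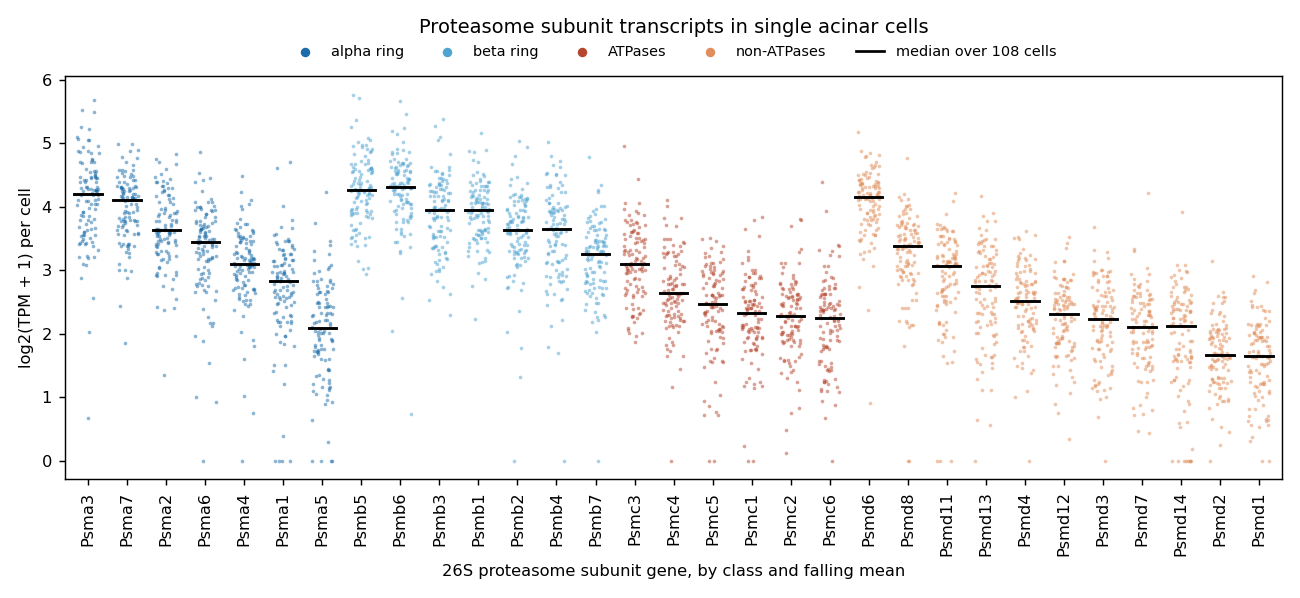
Level of each of the 31 subunit genes, as log2(TPM + 1), in each cell (points), grouped by class along the gene axis, with the median of each gene (bars). Core subunits lie mostly above the regulatory ones, and Psmd6 stands above the other regulatory subunits.

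Among the alpha subunits, which form the gated outer rings, Psma3 had the highest level. Its lowest, median and highest values were 0.59, 17.4 and 50.45 TPM, with a mean of 18.2 ± 8.78 TPM (SD over all cells), and the highest value was in cell 54. Psma7 followed with 2.62, 16.2 and 30.69 TPM, a mean of 15.7 ± 5.59 TPM. The distributions of this pair overlapped over most of their range. At the low end, Psma5 had a lowest value of 0, a median of 3.25 and a highest of 17.73 TPM, with a mean of 3.77 ± 2.69 TPM. Psma1 had 0, 6.085 and 25.25 TPM, with a mean of 6.37 ± 3.79 TPM. Both were highest in cell 40. Psma2, Psma6 and Psma4 lay between, with means of 12.4, 10.0 and 7.96 TPM. The fold between the highest and the lowest alpha mean was 4.83.

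The beta subunits were closer to one another, with a fold of 2.23 between the highest and the lowest mean. Psmb5, which carries the chymotrypsin-like site, had a lowest value of 6.67, a median of 18.25 and a highest of 53.44 TPM, and its mean was 19.5 ± 8.13 TPM (SD over all cells), the highest of the 31. Psmb6, the caspase-like subunit, had 0.67, 18.955 and 49.67 TPM, with a mean of 19.3 ± 7.37 TPM. Psmb7, the trypsin-like subunit, was the lowest beta subunit, with 0, 8.60 and 26.65 TPM and a mean of 8.77 ± 3.83 TPM. Transcripts of the 3 catalytic subunits of the constitutive particle were not at equal levels. Psmb4, a structural beta subunit, had 0, 11.49 and 31.41 TPM and a mean of 12.0 ± 5.79 TPM. The remaining structural subunits Psmb3, Psmb1 and Psmb2 had means of 15.0, 14.8 and 12.1 TPM.

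The ATPases, which form the unfolding ring, spanned a 2.05-fold range of means. Psmc3 was highest, with a lowest value of 2.64, a median of 7.61 and a highest of 29.94 TPM in cell 40, and a mean of 8.33 ± 3.98 TPM (SD over all cells). It was the only regulatory subunit detected in every cell. Psmc4 had 0, 5.21 and 16.16 TPM and a mean of 5.87 ± 2.91 TPM, and its highest value was in cell 31. Psmc6 had 0, 3.77 and 19.88 TPM with a mean of 4.06 ± 2.74 TPM, and Psmc2 had 0.09, 3.855 and 12.95 TPM with a mean of 4.16 ± 2.27 TPM. Psmc5 and Psmc1 had means of 4.73 and 4.26 TPM, so the means of Psmc5, Psmc1, Psmc2 and Psmc6 lay within 1 SD of each other.

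Psmd6, a subunit of the lid that covers the ATPase ring, stood apart from the other regulatory subunits. Its lowest, median and highest values were 0.88, 16.8 and 35.43 TPM, with a mean of 16.6 ± 5.50 TPM (SD over all cells). It was the highest regulatory subunit in 89 cells. It exceeded Psmd8, the lid subunit next in level, in 97 cells. Psmd8 had 0, 9.385 and 26.32 TPM and a mean of 9.34 ± 3.94 TPM, and the mean of Psmd6 was 1.78-fold that of Psmd8. The lowest means of all 31 subunits belonged to the large scaffold subunits Psmd1 and Psmd2. Psmd1 had 0, 2.135 and 6.53 TPM with a mean of 2.28 ± 1.31 TPM, and Psmd2 had 0, 2.175 and 7.82 TPM with a mean of 2.36 ± 1.24 TPM. Psmd4, a ubiquitin receptor, had 0, 4.745 and 11.27 TPM and a mean of 5.00 ± 2.27 TPM. Psmd14, the deubiquitinase that cuts ubiquitin chains from substrates, had 0, 3.36 and 14.04 TPM and a mean of 3.30 ± 2.19 TPM. The lid subunit Psmd13 had 0, 5.74 and 17 TPM and a mean of 5.94 ± 3.28 TPM. Psmd11, Psmd12, Psmd3 and Psmd7, also of the lid, had means of 7.04, 4.05, 3.92 and 3.59 TPM.

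In the order of all 31 means, each of the 30 neighbouring pairs differed by less than the smaller SD of the pair. That SD is the spread between cells and not the error of a mean, so this does not tell how firm the order is. The whole order spanned 8.56-fold, from Psmd1 to Psmb5. No single core subunit led in every cell: Psma3 was the highest core subunit in 28 cells, Psmb5 in 27 and Psmb6 in 23. Another gene row overlaps 14 of the 31 subunits, and none of those rows had a mean above 1.41 TPM. Whether the counting used strand is not stated, so reads of an overlapping pair cannot be told apart.

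The members outside the somatic particle were low. Psmd5, Psmd9 and Psmd10, chaperones that assemble the base of the regulatory particle and then leave it, had means of 1.93 ± 1.41, 1.09 ± 1.14 and 0.964 ± 0.881 TPM (SD over all cells). They were detected in 72.2%, 42.6% and 40.7% of cells. Psma8 reached 1 TPM in 0 cells, for which a floor of 3 cells is a share of 2.78% and the exact 95% interval reaches 3.36%, and it peaked at 0.72 TPM. Psmc3ip was detected in 2 cells (1.85%, exact 95% interval 0.225 to 6.53%) and reached 4.66 TPM in cell 40. Such intervals cover counting error only.

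Most of the subunits were found in nearly every cell. Of the 31, 28 were detected in at least 90% of cells, against 25% of the 7227 genes detected in at least 10% of cells (called tested genes below). The 3 others were regulatory: Psmd1 in 91 cells, Psmd14 in 93 and Psmd2 in 96. Detection in every cell held for 6 subunits, Psma2, Psma7, Psmb1, Psmb3, Psmb5 and Psmc3, against 11.1% of tested genes. The filter of at least 10% of cells was passed by 34 of the 36 members, all except Psma8 and Psmc3ip. All 31 subunits were detected together in 54 cells, and at least 29 in 96 cells. A single cell stood apart with 18 subunits, where the next lowest had 26. That cell, the short-total cell with the fewest genes, had the lowest deposited total, 788380 TPM, and 2624 genes detected. The part of library quality in this was not tested.

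In every cell, 21 short-total and 87 full-total, the mean TPM of the core subunits exceeded that of the regulatory subunits. The ratio of the core mean to the regulatory mean was lowest in cell 70 at 1.40, had a median of 2.30, and was highest in cell 84 at 3.31. Its mean was 2.28 ± 0.360 (SD over all cells), or 1.17 ± 0.23 on the log2 scale. For short-total cells the log2 ratio was 1.23 ± 0.22, against 1.16 ± 0.23 for full-total cells (SD, n = 21 and 87 cells). Over genes, the subunit means averaged 12.56 TPM in the core and 5.58 TPM in the regulatory particle. The groups overlapped: 13 of 14 core means lay above the median regulatory mean, but only 3 (Psmb5, Psmb6 and Psma3) lay above that of Psmd6. Core and regulatory transcripts also differed in length, with a median of 1163 bases for the core and 1819 bases for the regulatory particle (longest coding transcript of each gene), a description added after the data were seen. Mean TPM and that length had a Spearman correlation of -0.46 across the 31 subunits and -0.38 across 6789 tested genes, where genes are not independent replicates. Within the core that correlation was -0.31, and within the regulatory particle -0.30. The 15 regulatory subunits with transcripts no longer than the longest core transcript averaged 6.01 TPM. This set is not matched to the core in length, since the shortest regulatory transcript had 1316 bases, above the core median. The part of length in the difference between core and regulatory levels was not tested. Without Psmd6, a comparison added after the data were seen, the mean log2 ratio was 1.37.

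**Figure D2:**
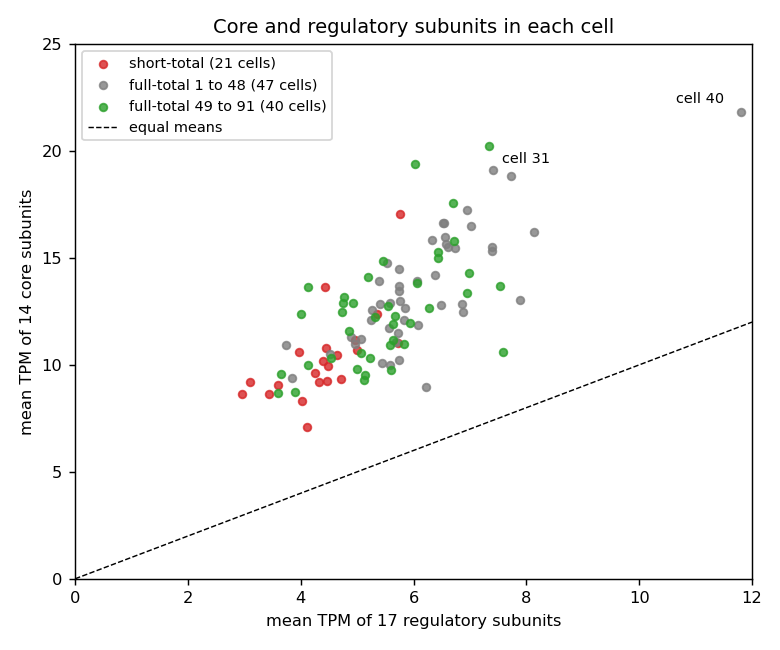
Mean TPM of the 14 core subunits (vertical axis) against mean TPM of the 17 regulatory subunits (horizontal axis) in each cell, with short-total and full-total cells marked and the dashed line at equal means. All cells lie above the line, and cell 40 lies at the upper right.

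Promoter sequences were set beside these levels, because the subunits move together in other settings through shared promoter elements: Nfe2l1, a factor that is itself released from the ER membrane, binds antioxidant response elements of proteasome genes. RefSeq promoters (GRCm38.p6, 250 bases before to 50 after the start) were given for 25 of the 31 subunits, 11 core and 14 regulatory. The core of the antioxidant response element (TGACNNNGC, either strand) was found for 4 of the 25 subunits, 16%, and for 17.7% of tested genes with a promoter. They were Psmb5, Psmb6, Psmc6 and Psmd12. The 30 bases around each match are shown, in the direction of transcription, with the match in capitals. They lie at chr14:54618024-54618053 on the minus strand (Psmb5), and on the plus strand at chr11:70525337-70525366 (Psmb6), chr14:45329586-45329615 (Psmc6) and chr11:107479278-107479307 (Psmd12).
Psmb5: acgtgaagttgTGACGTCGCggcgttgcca
Psmb6: actaaagagagTGACGGAGCgctttacgac
Psmc6: gccagccagtaGCTAAGTCAggcattgctc
Psmd12: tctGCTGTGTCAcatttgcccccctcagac
The 2 subunits of highest mean, Psmb5 and Psmb6, carried the match close to the start, beginning at positions -47 and -9 from it. In Psmc6 and Psmd12 it was read on the other strand and began at positions -227 and -247. The means of these 2 were low, at 4.06 and 4.05 TPM, and Psma3, with a mean of 18.2 TPM, had no match. A link between match and level was not tested. A match describes letters and shows no binding.

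The ETS-family core (CCGGAAG, either strand) was found for 10 of the 25 subunits, 40%. It was found for 24.6% of tested genes and 12.9% of all protein-coding genes with a promoter. By particle it was found for 1 of 11 core subunits, Psma6, and for 9 of 14 regulatory subunits. Psmd6, the highest regulatory subunit, and Psmd2, among the lowest, both carried it, The windows of Psmd6 (chr14:14120972-14121001, minus strand), Psmd2 (chr16:20651615-20651644, plus strand), Psmc2 (chr5:21785180-21785209, plus strand) and Psma6 (chr12:55398831-55398860, plus strand) are shown with the match in capitals.
Psmd6: cagagacgcgaCCGGAAGtcagactggcgg
Psmd2: tccgcagggcgCTTCCGGtctggaggacaa
Psmc2: accagtgagcaCTTCCGGgatggggctcgc
Psma6: agtagccataaCTTCCGGgagggggcttgg
The match began at positions -45 and -26 from the start in Psmd6 and Psmd2, which held 1 each. Psmc2 had matches at -84 (shown) and, counted from another RefSeq start, at -24. Psma6 had them at -132 and -2 and, in the stretch shown, at position 17 after the start. For both genes the positions come from more than 1 start, so matches at different positions can be the same site. Of the other motifs searched on both strands, the NF-Y box (CCAAT) was found for 40% of the 25 subunits and 43.7% of tested genes. For the Sp box (GGGCGG) the shares were 60% and 70.7%. The nuclear respiratory factor motif (GCGCNNGCGC) was in 24% and 17.3%, the YY1 motif (AAGATGGCG) in 8% and 4.57%, and the TATA box (TATAAA) in 12% and 8.34%. STAT (TTCNNNGAA) and IRF (GAAANNGAAA) motifs were found for 4% and 8% of the subunits, against 7.81% and 3.42%. The letters of the ER stress element (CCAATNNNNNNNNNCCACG) and the cyclic AMP response element (TGACGTCA) were in no promoter of these 25 subunits. Nor were those of the heat shock element (GAANNTTCNNGAA) and the TCT element (CTCTTTCC). All were rare among tested genes too, at 0.215%, 3.92%, 0.680% and 3.56% in the order named.

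The longer context of the highest core subunit and of the highest regulatory subunit is given as the 150 bases before the RefSeq start, with the antioxidant response element core of Psmb5 (chr14:54617996-54618145, minus strand) and the ETS core of Psmd6 (chr14:14120946-14121095, minus strand) in capitals.
Psmb5: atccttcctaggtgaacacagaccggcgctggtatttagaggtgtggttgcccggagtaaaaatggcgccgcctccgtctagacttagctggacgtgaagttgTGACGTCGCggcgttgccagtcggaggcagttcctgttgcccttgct
Psmd6: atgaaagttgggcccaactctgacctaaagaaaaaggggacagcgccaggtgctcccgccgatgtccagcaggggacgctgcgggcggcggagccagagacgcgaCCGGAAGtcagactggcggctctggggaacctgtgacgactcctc

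No subunit was among the strongly variable genes. The squared coefficient of variation (CV, the SD over the mean) of each gene was divided by the value expected at its mean from a smooth trend over all tested genes. None of the 31 subunits reached 2 times the trend, where 12% of tested genes did. The ratio ran from 0.540 for Psmd2 to 1.54 for Psma3, with a median of 0.884. It was below the trend for 19 of 31 subunits, where 50% of tested genes were. By particle these were 6 of 14 core subunits, near that background, and 13 of 17 regulatory subunits. The most variable of each class relative to the trend were Psma3, Psmb4 (1.27), Psmc6 (1.27) and Psmd13 (1.1). Over cells the summed level had a CV of 0.214.

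**Figure D3:**
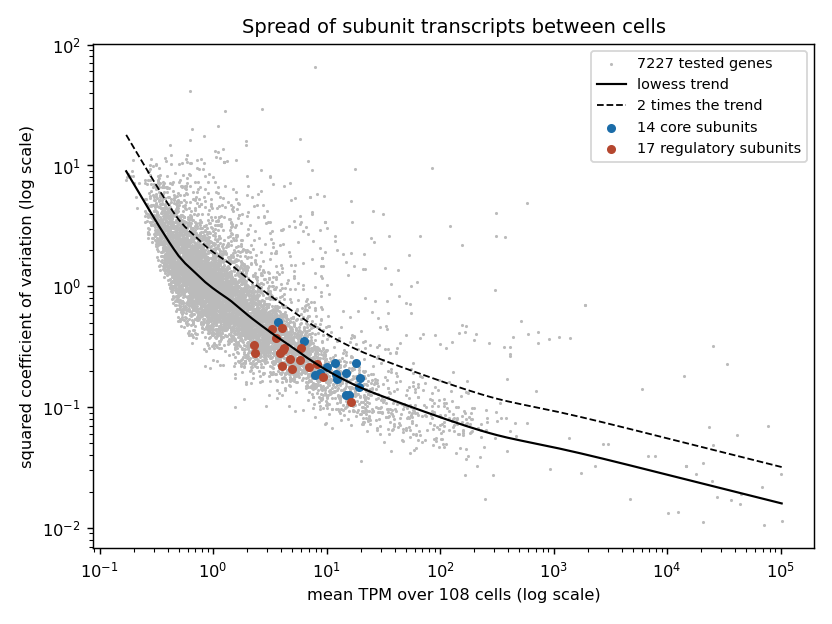
Squared coefficient of variation over all cells against mean TPM (both axes on log scales) for tested genes, with core and regulatory subunits marked and the lines of the trend and of 2 times the trend. All subunits lie below the upper line, from 0.540 to 1.54 times the trend.

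Subunits co-varied weakly as pairs. Spearman correlations over all cells, computed on log2(TPM + 1), had a median of 0.17 over the 465 pairs, and 443 of them were above 0. The median over all pairs of tested genes was 0.056, and over pairs of genes detected in at least 90% of cells, a background added after the data were seen, it was 0.11. Pairs within the core had a median of 0.19, pairs within the regulatory particle 0.15, and the 238 pairs between them 0.17, so pairs across the particles were about as related as pairs within them. The highest pair was Psmb7 and Psmc4 at 0.51, and Psmb5 and Psmb6 stood at 0.40. The lowest pairs were Psmc6 and Psmd4, and Psmc1 and Psmd4, both at -0.19. Of the single subunits, Psmd3 had the highest correlation with the mean score of the others, 0.51, and Psmd7 the lowest, 0.15.

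The co-variation went with the number of genes detected. The mean z-score of the 31 subunits had a Spearman correlation of 0.73 with the number of genes detected per cell, within sets 0.65 in short-total cells, 0.68 in full-total cells numbered up to 48 and 0.64 in those from 49 to 91. The summed level had -0.43 with the percent of TPM in digestive enzymes over all cells, and -0.44, -0.35 and -0.03 within the same sets, so that it was near 0 in the last one. All these measures come from the same libraries. Scaling each cell by the median ratio to the 1226 genes above 0 in every cell (median-of-ratios scaling) reduced the median over pairs of subunits to 0.027, against 0.015 over pairs of tested genes. It left 289 of the 465 pairs above 0, and reduced the CV of the summed level to 0.115. After this scaling Psmb7 and Psmc4 stayed the highest pair at 0.35, and Psmc6 and Psmd4 the lowest at -0.37. On residuals from the number of genes detected the medians were 0.065 over subunits and 0.0044 over tested genes. Core and regulatory scores had a Spearman correlation of 0.73 and a Pearson correlation of 0.77, and a Spearman of 0.32 after median-of-ratios scaling. Without cell 40 and the cell of fewest genes, the farthest from the median in the core score, the Pearson correlation was 0.73. Within short-total cells Spearman was 0.75, within full-total cells up to number 48 it was 0.68, and within those from 49 to 91 it was 0.55. Differences in the RNA captured per cell and in proteasome RNA cannot be told apart in these values.

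**Figure D4:**
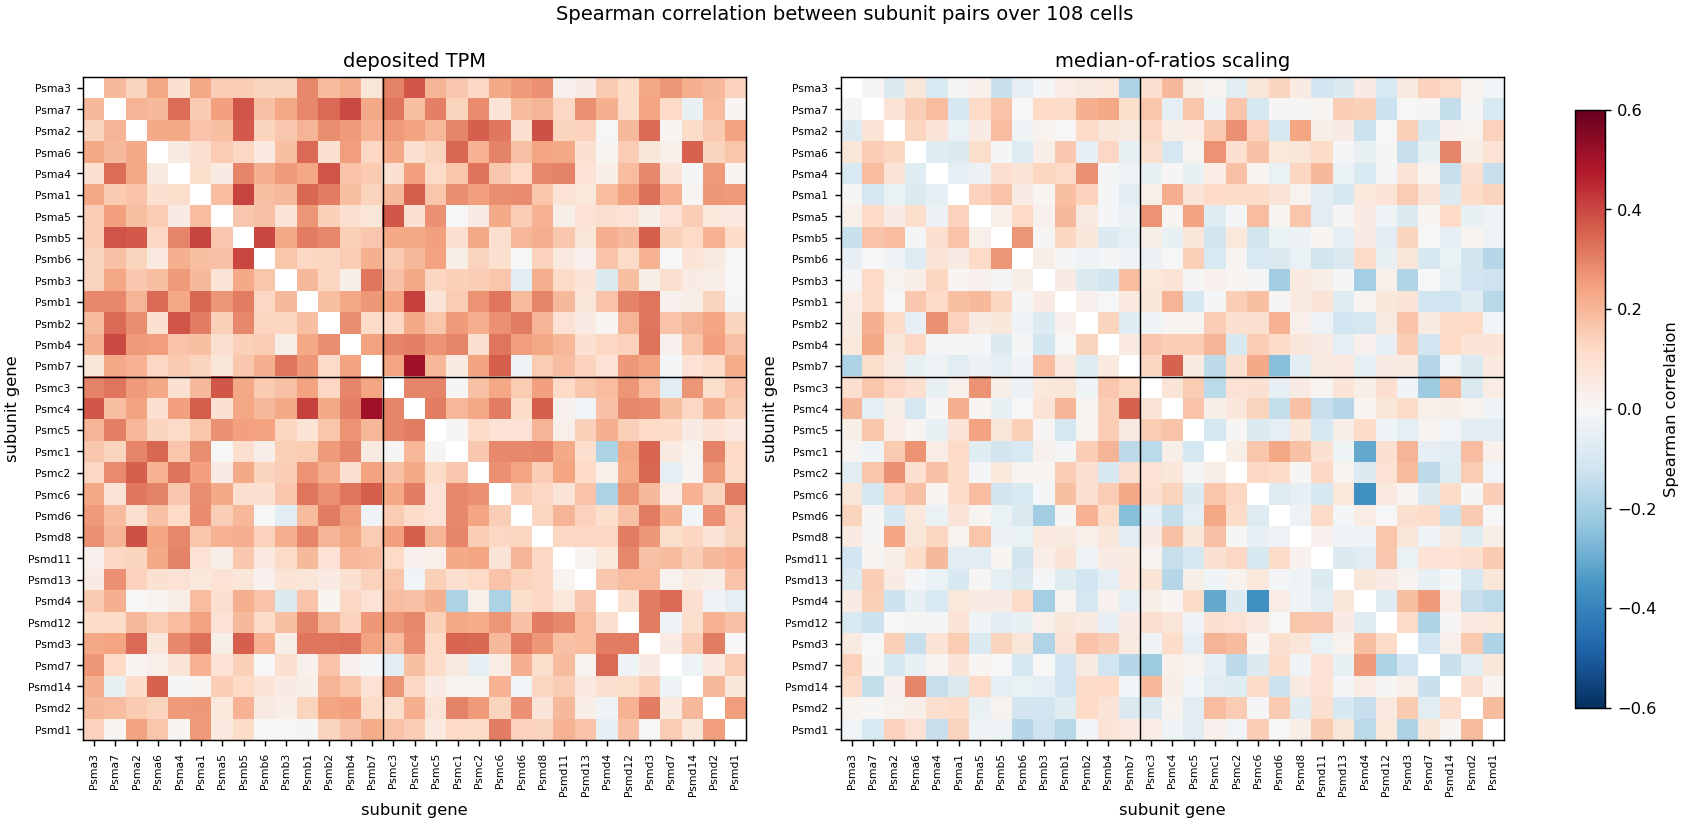
Spearman correlation over all cells between each pair of the 31 subunits (colour), from deposited TPM on the left and after median-of-ratios scaling on the right, with lines dividing core from regulatory subunits. The median over pairs was 0.17 on the left and 0.027 on the right.

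All 31 subunits were lower in short-total cells than in full-total cells, as were 77.6% of tested genes. The difference in mean log2(TPM + 1) had a median of -0.36 over the subunits and -0.15 over tested genes, and ran from -1.12 for Psma1 to -0.06 for Psmd1. The summed level had a lowest value of 169.41, a median of 215.7 and a highest of 336.87 TPM in short-total cells, and 182.33, 273.17 and 505.9 TPM in full-total cells. The 2 sets of cells overlapped, but only 1 of the 21 short-total cells lay above the full-total median, and short-total cells were 6 of the 10 cells with the lowest sums. With TPM rescaled over genes outside the digestive enzymes, 19 of 31 subunits were lower, against 52.1% of tested genes. The median difference was then -0.11 over the subunits and -0.03 over tested genes. After median-of-ratios scaling 24 of 31 were lower, against 53.7%, with a median difference of -0.13 over the subunits and -0.02 over tested genes. As a share of the TPM outside the digestive enzymes, the median of the sum was 0.264% for short-total cells, against 0.243% for full-total cells. The direction of the median summed level therefore turned when it was taken outside the digestive enzymes, while the median difference over single subunits stayed below 0. These cells are also the last in number, and what set them apart is not given in the labels.

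Cells 40 and 31 held transcripts of cycling genes, but to unequal degrees, and other cells held some too. Mki67, Top2a, Cdk1 and Rrm2, genes of dividing cells, were highest in cell 40, at 9.57, 25.2, 65.59 and 68.74 TPM. They were detected in 2, 4, 7 and 19 cells, in the order named. Cell 31 held far less Mki67 (1.55 TPM) and Top2a (1.72 TPM). Its level of Stmn1, another cycling gene, was 107.55 TPM, close to the 108.72 TPM of cell 40 (median over all cells 0, detected in 29 cells). The histone gene H2afz was highest in cell 31 at 318.66 TPM, but it was detected in every cell, with a median of 36.785 TPM. The summed proteasome level was 505.9 TPM in cell 40 and 393.63 TPM in cell 31. Among the remaining cells the median was 263.51 TPM, and cell 54 was highest with 407.57 TPM. Cell 40 ranked highest and held the highest value of 8 subunits, but the share of tested genes that were highest there was not counted. Cell 31 ranked 4. In cell 40, 28 of 31 subunits were above the median of the other cells, as were 81.8% of tested genes and 85% of the genes detected in at least 90% of cells, so the subunits' count there was near the background. In cell 31 it was 23 of 31 subunits, against 46.6% and 54.1%. Cell 40 also had the most genes detected, 6946, and the endothelial markers named above. It held 5 of 7 ductal markers, as did cell 15. Its ductal markers summed to 336.1 TPM, where the highest sum of any cell was 373.66 TPM. Spp1, which made up most of that sum, stood at 293.72 TPM in cell 40 (median over all cells 0, detected in 10 cells). Krt19 stood at 11 TPM (median 1.715, detected in 72 cells). Muc1 went the other way, at 21.67 TPM in cell 40 against a median of 25.405 TPM. Cell 31 had 4270 genes detected, rank 40, and 1 ductal marker. After median-of-ratios scaling cell 31 ranked first and cell 40 second. The part of a second cell in the values of cell 40 was not tested.

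The immunoproteasome subunits, which replace the constitutive catalytic subunits in immune cells and after interferon exposure, were present in unequal amounts. Psmb10, the counterpart of Psmb7, was detected in every cell, with a lowest value of 10.63, a median of 23.18 and a highest of 42.60 TPM. Its mean was 23.2 ± 6.43 TPM, against 8.77 ± 3.83 TPM for Psmb7 (SD over all cells), a fold of 2.65. Psmb10 was above Psmb7 in all but 2 cells, and the mean log2 difference was 1.37 ± 0.65. It was also above Psmb5, the highest constitutive subunit, in 79 cells, and its squared CV was 0.561 times the trend. Psmb8, the counterpart of Psmb5, was detected in 1 cell, and Psmb9, the counterpart of Psmb6, in 4 cells, with highest values of 2.02 and 2.89 TPM. No cell had both. Psmb11, the thymus subunit, was likewise detected in 0 cells, with the same floor of 2.78% and upper bound of 3.36%. Psmb10 (chr8:105935735-105938444, minus strand, whole gene) lies 1872 bases from Ctrl (chr8:105932003-105933862), a chymotrypsin-like digestive enzyme gene with 44310 ± 5544 TPM. Psmb10 and Ctrl had a Spearman correlation of 0.08 over all cells, 0.57 among short-total and -0.09 among full-total cells. The antisense gene Gm16156 overlaps Psmb10 and had a mean of 1.44 TPM. Whether reads from Ctrl transcripts reach the Psmb10 row was not tested.

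**Figure D5:**
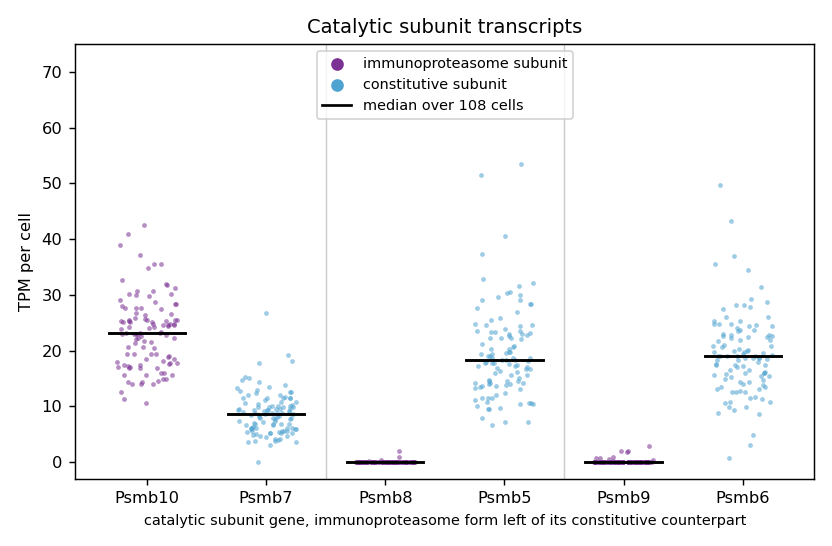
TPM per cell of the immunoproteasome subunits Psmb10, Psmb8 and Psmb9, each left of its constitutive counterpart Psmb7, Psmb5 and Psmb6 (points are the cells, bars the medians). Psmb10 lies mostly above Psmb7, with medians of 23.18 and 8.60 TPM, while Psmb8 and Psmb9 lie near 0.

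Of the activators that cap the core in place of the regulatory particle, Psme3, a nuclear one, had a mean of 3.46 ± 1.82 TPM. Psme2 had 3.34 ± 3.65 TPM and Psme1 1.78 ± 1.58 TPM (SD over all cells). Psme2 was the only one of the 5 activator and inhibitor genes at or above 2 times the trend, at 2.94 times. Among the chaperones that build the core, Pomp, which matures the beta subunits, had 7.13 ± 4.11 TPM, Psmg1 had 3.06 ± 1.79 TPM and Psmg2 had 2.81 ± 2.08 TPM. Of proteins that bind the assembled particle, the deubiquitinase Uchl5 had 9.65 ± 4.68 TPM, Sem1, a small lid protein, 5.38 ± 2.16 TPM, and the thioredoxin-like Txnl1 4.35 ± 1.66 TPM. Uchl5 and Sem1 were detected in every cell. The transcription factor Nfe2l1 was low, with 1.72 ± 1.33 TPM and detection in 77 cells. Ngly1, the glycanase that acts on it, had 2.32 ± 1.28 TPM, and the related factor Nfe2l2 had 0.652 ± 0.903 TPM. The protease Ddi2, which cuts it, was detected in 2 cells.

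Both ubiquitin genes described here stood far higher than the subunits. Rps27a and Ubb had means of 171.9 ± 46.7 and 129.3 ± 36.5 TPM (SD over all cells), where the highest subunit, Psmb5, had 19.5 TPM. Rps27a has near-identical copies elsewhere in the genome, which makes its value uncertain. Uba1, the main enzyme that activates ubiquitin, had 4.61 ± 2.09 TPM. All 18 genes of ER-associated degradation were detected in at least 10% of cells, and 8 of them in every cell, with a median of their means of 4.92 TPM. Herpud1, induced in ER stress, had 99.1 ± 57.4 TPM and was the only one of the 18 called variable, at 4.04 times the trend. Sel1l, the partner of the ubiquitin ligase Syvn1, had 62.8 ± 18.9 TPM, and the mannosidase-like Edem2 had 45.95 ± 10.6 TPM. Over all cells, list scores correlated with the proteasome score with a Spearman of 0.68 for ER-associated degradation, 0.62 for the ubiquitin and activating enzyme list, 0.59 for bound proteins, 0.48 for activators, 0.38 for core chaperones and 0.29 for the Nfe2l1 list. All these scores share libraries and move with the number of genes detected. Within short-total cells, full-total cells up to 48 and those from 49 to 91, the correlation was 0.61, 0.53 and 0.69 for ER-associated degradation and 0.47, 0.64 and 0.72 for the ubiquitin list. For bound proteins it was 0.14, 0.47 and 0.60, the lowest being in short-total cells. After median-of-ratios scaling the correlation was lower for these 5 lists, at 0.23 for bound proteins, 0.20 for ER-associated degradation, 0.16 for core chaperones, 0.15 for activators and 0.0092 for the ubiquitin list.

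The genes most like the proteasome score were sought among 3698 other genes detected in at least 50% of cells, by Spearman correlation over all cells. They were led by Rnh1, the ribonuclease inhibitor, at 0.73, with a mean of 36.7 ± 10.98 TPM. Next came the translation factor Eif5a at 0.70, then the nucleic acid-binding Cnbp, the cholecystokinin receptor Cckar and the signal peptidase subunit Spcs1, all at 0.68. Serp1 and the signal peptide peptidase H13 stood at 0.66, and the ATP synthase subunit Atp5f1, the GTPase Arf4 and the ferritin heavy chain Fth1 at 0.65. The median over the genes ranked was 0.24. After median-of-ratios scaling these 10 values lay between -0.01 (Fth1) and 0.38 (Rnh1), and 1 of the 10 was among the 10 highest under that scaling. In full-total cells, 6 of the 10 were.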

How the data were processed

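Single-cell polyA RNA libraries of 21 short-total and 87 full-total cells formed 1 group. The authors' deposited table holds TPM per Ensembl gene, a unit read from column totals of 1000000 in the full-total cells. Per the submitters' processing notes, which give no roles, RSEM 1.2.21, STAR 2.4.2a, edgeR and the mm10 build were involved. RSEM shares reads among near-identical copies, and the labels do not state strand. Read depth is unknown.

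Of all rows, 44548 matched a gene symbol through the reference tables. Genes detected (at least 1 TPM) in at least 10% of cells were tested for spread (lowess span 0.3, log10 scales). No cell was left out, and no doublet caller was run. Python 3.11.15, numpy 2.4.6, pandas 2.3.3, scipy 1.17.1 and statsmodels 0.14.6 were used, and the functions were tested on simulated data. Coordinates of genes are from GENCODE M21, on GRCm38.

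Within each class the 2 highest and 2 lowest means and the highest ratio to the trend were named, with the catalytic subunits, Psmd4, Psmd14, up to 3 genes of each list, and the 10 most like genes. Any further gene was picked once its values were known. Members, lists and the division of cells after number 48 were chosen with earlier results of these data known. Alternatives covered pseudocount, detection level, filter, span, threshold, scaling and sets of cells. Of the ubiquitin list, 2 genes are not reported here, and its score is computed without them.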

Additional observations from a re-analysis of the deposited data

How the results depend on the processing

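Of 92 alternative values, 73 stayed close to the reported ones, 19 moved and 0 reversed. Reversed meant a change of sign and could be given to correlations only, not to levels, ratios or counts. Close meant within 1 SD over cells for the summed level and the ratio, and within 1.5-fold for correlations and counts. Some of the 73 could not change by construction. Examples are the core to regulatory ratio under scaling of cells, pair rank correlations under another pseudocount, and settings that altered only the background. The causes were not tested beyond what each alternative's construction shows. Rescaling over genes outside the digestive enzymes put the summed level at 2463 TPM, by construction, and left 19 of 31 subunits lower in short-total cells. At a detection level of 5 TPM, 10 subunits were in at least 90% of cells. At 1.5 times the trend 1 subunit was variable (Psma3, against 21.7% of tested genes). Within short-total cells 3 were (Psma6, Psmb5 and Psmc6, against 14.4%), and within full-total cells 49 to 91 it was 1 (Psma3, against 12.8%). The median pairwise correlation was 0.027 after median-of-ratios scaling (all tested genes 0.015), 0.057 within short-total cells (0.042), 0.065 on residuals from genes detected (0.0044) and 0.11 on differences between cells next in number (0.051). The log2 ratio of core to regulatory was 1.41 with medians over subunits. Median-of-ratios scaling gave 0.32 for the core and regulatory scores, 0.20 for ER-associated degradation and 0.0092 for the ubiquitin list. Unknown depth limits all subunits near 1 TPM, foremost Psmd1, Psmd2 and Psmd14. No paired analysis was possible because there is 1 group. Leaving out replicates was not possible either, since there are none.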
